A study of Mus musculus with 30 samples.

Results

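Cells leave or hold the division cycle largely through inhibitors of cyclin-dependent kinases (CDKs). The set described here is 10 listed mouse genes: the Cip/Kip inhibitors Cdkn1a, Cdkn1b and Cdkn1c, the Ink4 inhibitors Cdkn2a, Cdkn2b and Cdkn2c, the p53 gene Trp53, and 3 genes that p53 is known to induce, Mdm2, Ccng1 and Gdf15. They were chosen by name, as 10 of the 21847 protein-coding genes and with 37 of the 140198 annotated transcripts, and were read in all 14 RNA-seq libraries of a study of mouse brain endothelial cells (ECs).

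The study compared ECs taken straight from the brain with ECs kept in primary culture, and asked whether stabilized beta-catenin, the effector of the Wnt pathway that maintains the blood-brain barrier, alters cultured ECs. All mice were adult males. Acute ECs (2 libraries) were GFP-positive cells sorted from the brains of Tie2-GFP mice, whose GFP is driven by an endothelial promoter, and GFP-negative cells (2 libraries) came from the same kind of sort. Both were read as single ends of 75 cycles. WT cultures (6 wells) were puromycin-selected brain ECs at day 8, from mice pooled for each of 3 experiments (wells 1 and 2, 3 and 4, 5 and 6). Wells 1 and 2 were C57BL/6J cells isolated by method A, a papain digestion. Wells 3 to 6 carried Ctnnb1flex3/+;Tie2-GFP and were isolated by method B, which uses Dounce homogenization and collagenase/dispase. Stabilized cultures (4 wells, Ctnnb1flex3/+;Pdgfb-CreER;Tie2-GFP, also at day 8) came from mice in which the endothelial CreER, induced with 4-hydroxytamoxifen in early life, removes exon 3 of 1 Ctnnb1 allele. The Ctnnb1flex3/+;Tie2-GFP control mice were given the same drug at the same age. Wells 1 and 2 of these were method A and wells 3 and 4 method B. WT wells 3 and 4 were read as paired ends of 150 cycles at another facility, and the other cultures as paired ends of 36 cycles. Each pair of wells shared 1 cell preparation, so p-values over wells measure a spread that is partly technical, and acute against cultured also means single-end against paired-end reads, which cannot be told apart. Loss of exon 3 was not checked here, since the tables hold whole transcripts. The study itself reported reads joining exons 2 and 4 in each of the 4 stabilized RNA-seq libraries and in none of the 6 WT ones.

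Libraries held 24284843 to 94686456 estimated counts. The 8 endothelial markers summed to 1865 to 1870 TPM (transcript abundance scaled by length and depth) in acute ECs, 1674 to 4223 in WT cultures, 1864 to 5630 in stabilized cultures and at most 18.5 in GFP-negative cells. The 5 pericyte markers summed to 501 and 523 in acute ECs and to at most 12.6 in any culture, with Kcnj8, Abcc9 and Vtn below 1 TPM in every culture. The 4 smooth muscle markers summed to 214 and 233 in acute ECs and to 461 to 3068 in cultures. Red cell markers summed to 4751 and 31511 in the acute libraries and to at most 1.39 in culture, and the mitochondrial share of counts was 10.6% and 11.2% against 0.667% to 2.58%. The part of these differences in the results below was not tested. In bulk libraries, fewer cells with a transcript and less of it per cell cannot be told apart.

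As background, Cip/Kip proteins bind several cyclin-CDK complexes, while Ink4 proteins bind the CDKs that pair with D-type cyclins. The Cdkn2a locus makes an Ink4 protein and, from another first exon and reading frame, Arf, which restrains the ubiquitin ligase Mdm2. Mdm2 marks p53 for degradation and is itself induced by p53, which closes a feedback loop. p53 raises transcription of Cdkn1a in response to DNA damage and other stress. The activity of p53 itself is raised mostly through the stability of its protein, which RNA does not show. Brain ECs of the adult divide rarely, and primary culture is a setting in which these genes are commonly followed as signs of arrest.

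The p53 response element is a pair of adjacent sites of 10 letters each, and it was searched on 1 strand, as it is its own reverse complement, within 3 kb of each member's starts, allowing no spacer, keeping the C and G of each site and allowing up to 3 other mismatches. Matches with 1 mismatch lay beside Cdkn1a (39 bp upstream of the Cdkn1a-204 start), Ccng1 (160 bp upstream and 366 bp downstream of its start), Gdf15 (120 bp downstream of the Gdf15-201 start) and Cdkn2b (2630 bp downstream). They are printed, apart from that of Cdkn2b, because these 3 genes are the p53-induced members of the set with the closest matches. All are read 5′ to 3′ on the gene's own strand from GRCm38.p6 (RefSeq), with the 20 letters of the match in capitals. The Cdkn1a stretch is chr17:29090888-29090987 (+), the Ccng1 stretches are chr11:40755422-40755521 (−) and chr11:40754896-40754995 (−), and the Gdf15 stretch is chr8:70631961-70631990 (−).
Cdkn1a, upstream start: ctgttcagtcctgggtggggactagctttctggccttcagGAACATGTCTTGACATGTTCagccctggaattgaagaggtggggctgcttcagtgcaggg
Ccng1, upstream: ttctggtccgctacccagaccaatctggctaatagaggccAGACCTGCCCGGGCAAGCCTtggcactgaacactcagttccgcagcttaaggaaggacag
Ccng1, downstream: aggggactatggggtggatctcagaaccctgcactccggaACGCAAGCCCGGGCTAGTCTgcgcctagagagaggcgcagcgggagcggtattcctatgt
Gdf15: aggggTGACTTGCCTGAACTTGCCTtttct
A match is a run of letters and not evidence of binding. Of 32851 RefSeq promoter windows of 300 bp, 0.067% held such a match with at most 1 mismatch and 1.38% with at most 3. The windows are shorter than the 3 kb searched to each side of the members' starts. Their shares therefore do not apply to matches outside them. Among the members' 13 windows, those of Ccng1 and of the upstream start of Cdkn1a held 1 with 1 mismatch, and those of Cdkn1b and Trp53 held 1 with 3 mismatches.

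The Cdkn2a products can be told apart only by their first exons, so the joins are shown, with the last 60 bases of exon 1 in capitals and the start of the shared exon 2 (chr4:89276645-89276985, −) in lower case. Exon 1 of Cdkn2a-201 (Ink4a, chr4:89281986-89282192) ends on a whole codon, and that of Cdkn2a-202 (Arf, chr4:89294334-89294653) ends 1 base into a codon, so the same exon 2 letters are read in different frames.
Cdkn2a-201, Ink4a: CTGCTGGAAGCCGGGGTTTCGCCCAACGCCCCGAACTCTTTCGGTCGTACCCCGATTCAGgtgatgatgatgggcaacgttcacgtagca
Cdkn2a-202, Arf: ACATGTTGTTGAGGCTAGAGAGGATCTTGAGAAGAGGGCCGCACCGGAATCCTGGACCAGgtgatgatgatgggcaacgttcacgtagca
Both transcripts were close to absent from the libraries, as given with the Ink4 genes.

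Across the 9 members that could be tested between WT cultures and acute ECs, 3 were higher in culture (Mdm2, Ccng1 and Gdf15) and 2 lower (Cdkn1b and Cdkn1c). A call needed an adjusted p under 0.05, a change of over 2-fold in CPM (counts scaled by depth) and at least 5 TPM in every library of the higher group. Of all 13798 genes tested, 23.7% were called, 13.5% higher and 10.2% lower. The median log2 fold was −0.39 over the 5 CDK inhibitors tested, 2.74 over Trp53 and the p53-induced members, and 0.10 over all genes. Stabilized cultures against the same acute libraries gave calls for those 5 members again, in the same directions, where 26.1% of 13904 genes were called, 15.0% higher and 11.0% lower. As the acute libraries are shared, the second comparison does not repeat the first independently.

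**Figure D1:**
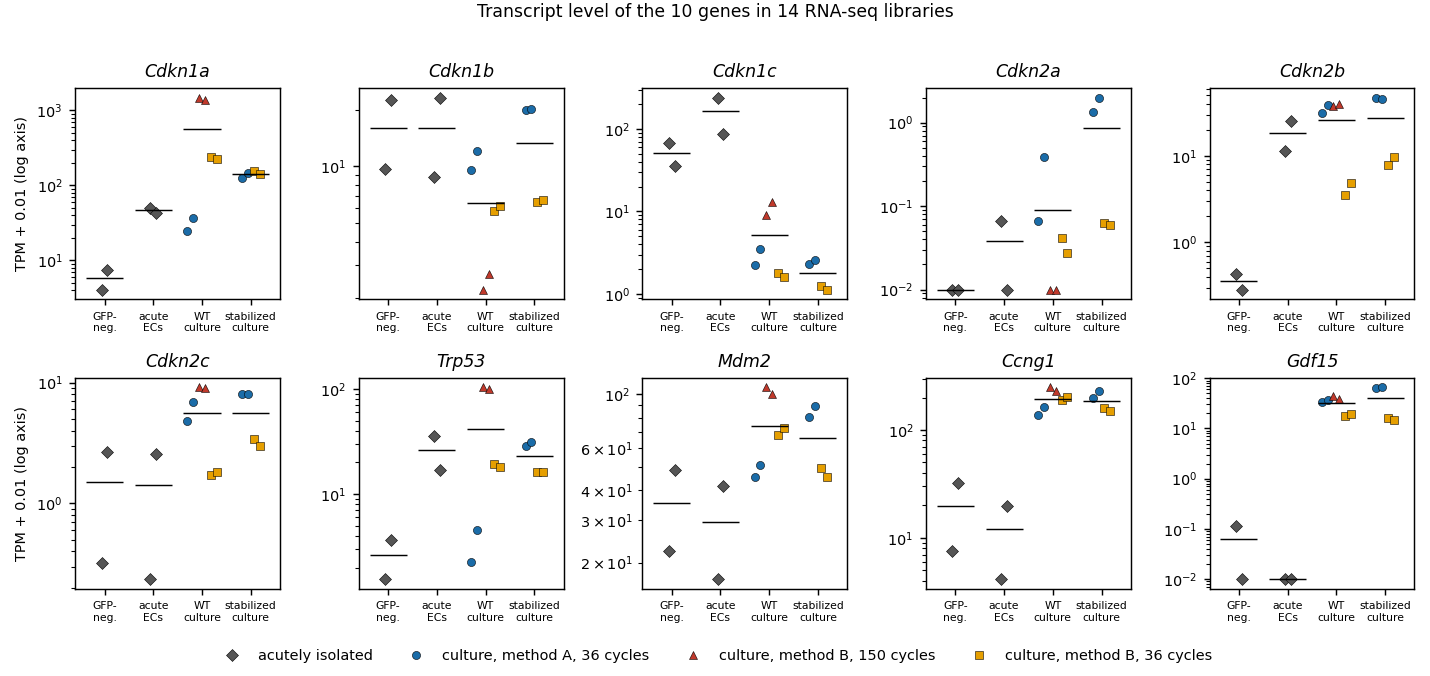
TPM + 0.01 on a log axis of the 10 genes (panels) in the 14 libraries, grouped as GFP-negative cells, acute ECs, WT cultures and stabilized cultures. Diamonds are sorted cells, circles method A, triangles method B read at 150 cycles and squares method B read at 36 cycles, and each short line is the group mean. Ccng1 and Gdf15 lay above acute ECs in all 10 cultures, Cdkn1c lay below, and Cdkn1a and Trp53 spread widely among the 6 WT wells.

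Cdkn1a (chr17:29090976-29100727, GRCm38, +) makes p21, the main CDK inhibitor downstream of p53. Its level was 4.08 and 7.46 TPM in GFP-negative cells and 49.7 and 43.0 TPM in acute ECs. In WT cultures it was 24.7 and 36.6 TPM in experiment 1, 1477 and 1357 in experiment 2, and 238 and 222 in experiment 3, and in stabilized cultures 125, 146, 154 and 143. Experiment 1 thus lay below both acute libraries, while every other culture lay above them. In TPM the experiment means differed up to 46.3-fold, against at most 1.48-fold between wells of 1 experiment (median over the 6 wells 230 TPM). The spread was smaller in CPM, at 41.7 and 59.6, 751 and 733, and 447 and 400 by experiment. The mean effective length counted was 813 and 825 bases in experiment 2 and 1515 to 1783 in the other WT wells. The acute ECs exceeded GFP-negative cells by a log2 fold of 2.86 ± 0.48 (SE, edgeR adjusted p = 0.00912), with no overlap. The WT cultures against acute ECs gave 1.75 ± 1.05 (adjusted p = 0.200), with overlapping groups. Taken singly, with experiments chosen as a split after the data were seen, the log2 fold was −1.10 in experiment 1 (adjusted p = 0.0763), 2.45 in experiment 2 (adjusted p = 0.00788) and 2.07 in experiment 3 (adjusted p = 0.0166). Stabilized cultures lay above acute ECs in all 4 wells, but the log2 fold of 1.09 ± 0.47 had an adjusted p of 0.0883.

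The transcripts of Cdkn1a moved unevenly. Cdkn1a-201, the main coding transcript, stood at 19.8 and 35.9 TPM in acute ECs, and at 19.9 and 29.0, 244 and 231, and 205 and 185 TPM in the WT experiments. In stabilized cultures it stood at 103, 128, 129 and 118 TPM. Thus experiments 2 and 3 were alike in this transcript and differed in another: Cdkn1a-202, which starts beside the printed element, was 1229 and 1123 TPM in experiment 2, or 83.2% and 82.8% of the gene. It was 31.1 and 35.0 TPM in experiment 3, 4.27 and 7.09 in experiment 1, 15.7 to 24.2 in stabilized cultures, and 0 in all 4 sorted libraries. Experiment 2 differs in cycle number and facility, and the part of either in its Cdkn1a-202 level was not tested.

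**Figure D2:**
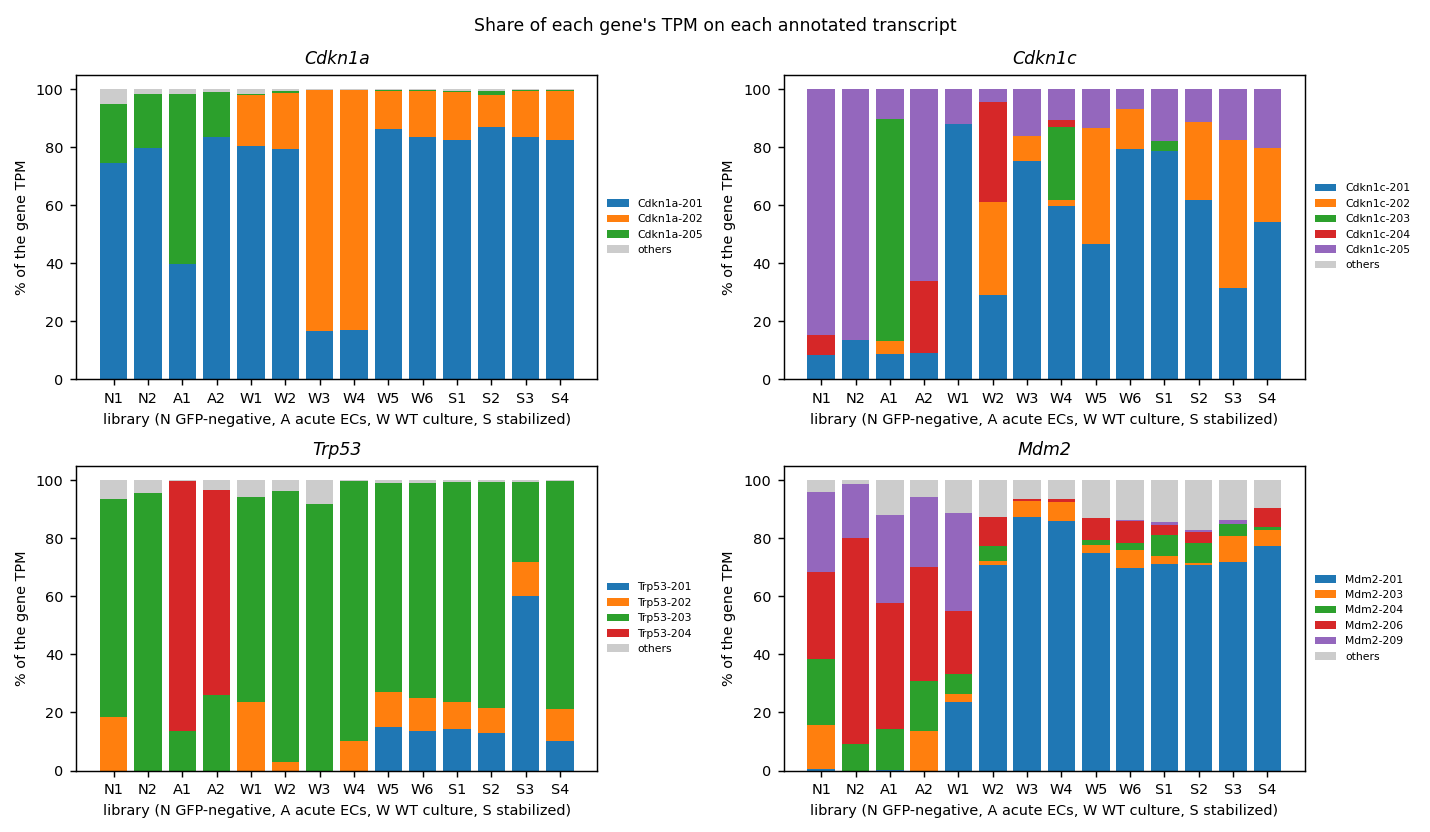
Share of the gene's TPM (percent, stacked bars) held by each transcript of Cdkn1a, Cdkn1c, Trp53 and Mdm2 in each library (N, GFP-negative; A, acute; W, WT culture; S, stabilized culture, with the well number). Cdkn1a-202 filled most of the bar in W3 and W4 alone, Trp53-204 appeared in A1 and A2 alone, and Mdm2-201 made up most of Mdm2 in 9 of the 10 cultures and under 1% in sorted cells.

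Cdkn1b (chr6:134920401-134925513, +) makes p27, which holds resting cells out of cycle. Its level was 9.68 and 22.4 TPM in GFP-negative cells and 8.82 and 23.1 TPM in acute ECs. WT cultures held 9.54 and 12.1, 2.22 and 2.67, and 5.79 and 6.18 TPM by experiment, and stabilized cultures 19.9, 20.2, 6.45 and 6.66. These ranges overlapped in TPM but not in CPM, where WT cultures averaged 14.5 and acute ECs 58.7. Its log2 fold was −2.21 ± 0.72 in WT cultures (adjusted p = 0.0331) and −1.46 ± 0.29 in stabilized cultures (adjusted p = 0.00592). With each library's transcript lengths in the fit, the values were −1.55 (adjusted p = 0.136) and −0.89 (adjusted p = 0.0593), so both calls were lost. The WT call was also lost without acute library 1 (adjusted p = 0.0818), acute library 2 (0.1399) or WT well 6 (0.0513), and when the wells of each experiment were summed (0.0645).

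Cdkn1c (chr7:143458339-143461050, −) makes p57, an imprinted inhibitor, and was the member that fell most in culture. It stood at 67.0 and 35.1 TPM in GFP-negative cells and 239.7 and 87.6 TPM in acute ECs. WT cultures held 2.23 and 3.50, 9.15 and 13.02, and 1.79 and 1.61 TPM, and stabilized cultures 2.29, 2.55, 1.24 and 1.12. All 10 cultures were below all 4 sorted libraries. The log2 fold was −5.38 ± 0.44 in WT cultures (edgeR adjusted p = 8.6e-05) and −5.99 ± 0.54 in stabilized cultures (adjusted p = 0.000336). The pericyte markers fell in the same direction, from 501 and 523 TPM in acute ECs to at most 12.6 in culture, and their part in the Cdkn1c difference was not tested. Acute ECs exceeded GFP-negative cells without overlap, at 2.098 ± 0.76, but the edgeR adjusted p was 0.0868, and DESeq2 called it (2.07, adjusted p = 0.0399).

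The acute libraries differed in which Cdkn1c transcript was counted. Cdkn1c-203 held 183 TPM in acute library 1 and 0 in acute library 2, while Cdkn1c-205 held 25.1 and 58.0. Cdkn1c-201, the longest coding transcript, held 20.5 and 8.05 TPM in acute ECs, 0.837 to 7.77 in WT cultures and 0.391 to 1.80 in stabilized cultures. The fall in culture was thus smaller in Cdkn1c-201 than in the gene as a whole. An annotated gene on the other strand, Gm44732, overlaps Cdkn1c, and the assignment of shared reads to either is not stated.

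Cdkn2b (chr4:89306299-89311039, −), whose product p15 is induced by TGF-beta, was far higher in ECs than in the other sorted cells. GFP-negative cells held 0.417 and 0.275 TPM and acute ECs 11.3 and 25.0. WT cultures held 31.0 and 38.7, 37.4 and 39.4, and 3.52 and 4.86 TPM, and stabilized cultures 47.1, 45.8, 7.83 and 9.65. Experiments 1 and 2 lay above both acute libraries and experiment 3 below both. Acute ECs exceeded GFP-negative cells by a log2 fold of 6.04 ± 0.71 (edgeR adjusted p = 0.00324). Together with Cdkn1a it made 2 of 8 members tested as called in that comparison, both higher, where 15.8% of 15116 genes were called, 8.28% higher and 7.55% lower. Against acute ECs the fold in WT cultures was −0.39 ± 0.75 (adjusted p = 0.691) and in stabilized cultures −0.31 ± 0.51 (adjusted p = 0.627). Experiment 3 alone gave −2.36 (adjusted p = 0.0119).

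Cdkn2c (chr4:109660876-109667189, −), which makes p18, was low throughout. It stood at 0.310 and 2.68 TPM in GFP-negative cells, 0.226 and 2.57 in acute ECs, 4.83 and 6.85, 9.13 and 8.96, and 1.69 and 1.80 in the WT experiments, and 8.10, 8.04, 3.41 and 2.99 in stabilized cultures. Only experiment 3 overlapped the acute libraries among the cultures. The log2 fold over acute ECs was 1.17 ± 0.75 in WT cultures (adjusted p = 0.229) and 1.40 ± 0.66 in stabilized cultures (adjusted p = 0.110).

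Cdkn2a (chr4:89274471-89294653, −) was near 0 in every library. Its estimated count was 0 in both GFP-negative libraries, 4 and 0 in acute ECs, 1, 10, 0, 0, 1 and 1 in WT wells 1 to 6, and 44, 56, 3 and 3 in stabilized wells 1 to 4. The largest level was 1.98 TPM, in stabilized well 2, and the count was above 10 only in the stabilized wells of method A. In those wells Cdkn2a-201 (Ink4a) held 0.560 and 0.544 TPM and Cdkn2a-202 (Arf) 0.787 and 1.44. Acute library 1 held the Ink4a form alone, at 0.0568 TPM, and stabilized wells 3 and 4 the Arf form alone, at 0.0535 and 0.05. Counts of this size are split between transcripts by few reads. Among the 4 comparisons of groups, the gene passed the count filter only in stabilized cultures against acute ECs, at a log2 fold of 3.78 ± 1.80 (edgeR adjusted p = 0.113).

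Trp53 (chr11:69580359-69591873, +) varied among the WT wells much as Cdkn1a did. It stood at 1.55 and 3.69 TPM in GFP-negative cells and 36.0 and 16.9 in acute ECs. WT cultures held 2.26 and 4.58, 103 and 99.4, and 19.3 and 18.2 TPM, and stabilized cultures 28.9, 31.5, 16.1 and 16.2. Experiment 2 was above both acute libraries, experiment 1 below both and experiment 3 between them. The experiment means differed up to 29.7-fold, against 2.02-fold at most between wells of an experiment. The log2 fold over acute ECs was 1.01 ± 1.02 in WT cultures (adjusted p = 0.446) and 0.73 ± 0.30 in stabilized cultures (adjusted p = 0.0786). By experiment it was −1.79 (adjusted p = 0.0417), 1.95 (adjusted p = 0.0162) and 0.92 (adjusted p = 0.130). With transcript lengths in the fit, the pooled values turned to −0.58 and −0.96. Acute ECs lay above GFP-negative cells without overlap, at 1.93 ± 0.63 (edgeR adjusted p = 0.0655), and DESeq2 called that difference (1.89, adjusted p = 0.0127).

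The transcripts counted for Trp53 differed between the groups. Trp53-204, annotated as a short processed transcript, held 31.0 and 12.0 TPM in the acute libraries and 0 in the other 12. Trp53-203, which codes for the protein, held 4.87 and 4.42 TPM in acute ECs and 1.60 and 4.28, 95.0 and 89.0, and 13.9 and 13.5 in the WT experiments. In stabilized cultures it held 21.9, 24.5, 4.41 and 12.7 TPM. In this transcript experiment 1 lay below acute ECs, and experiments 2 and 3 lay above. The mean effective length of the Trp53 transcripts counted was 252 to 396 bases in acute ECs and 1648 to 2013 in WT cultures.

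Mdm2 (chr10:117688875-117710758, −), the ligase that limits p53, stood at 22.3 and 48.6 TPM in GFP-negative cells and 17.1 and 41.7 in acute ECs. WT cultures held 45.3 and 50.9, 107 and 100.3, and 68.1 and 72.2 TPM, and stabilized cultures 80.4, 89.2, 49.6 and 45.3. All 10 cultures exceeded both acute libraries. The log2 fold was 1.66 ± 0.35 in WT cultures (edgeR adjusted p = 0.00552) and 1.56 ± 0.16 in stabilized cultures (adjusted p = 0.000518). With transcript lengths in the fit it was 0.79 (adjusted p = 0.104) and 0.65 (adjusted p = 0.0541), so neither call stood. Acute ECs did not pass the test against GFP-negative cells (0.21, adjusted p = 0.720).

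The transcripts of Mdm2 differed more than the gene. Full-length Mdm2-201 held 0.0485 and 0 TPM in acute ECs and at most 0.117 in GFP-negative cells. In WT cultures it held 10.7 and 36.1, 93.6 and 86.1, and 51.0 and 50.4 TPM, and in stabilized cultures 57.3, 63.3, 35.6 and 35.0. Mdm2-206, a short processed transcript, held 7.39 and 16.4 TPM in acute ECs and 0 to 9.85 in cultures. A transcript annotated for nonsense-mediated decay that starts close to Mdm2-206 held 5.15 and 9.97 TPM in acute ECs, 15.2 in WT well 1 and at most 0.725 in the other 9 cultures. The mean effective length counted was thus 559 to 782 bases in acute ECs and 2008 to 2601 in WT cultures. Sorted libraries were made from amplified cDNA and read from single ends, and their part in the difference between transcripts cannot be told apart from that of culture.

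Ccng1 (chr11:40748552-40755311, −), the cyclin G1 gene, is a p53-induced gene, and its protein recruits a phosphatase to Mdm2. It stood at 7.56 and 32.2 TPM in GFP-negative cells and 4.14 and 19.9 in acute ECs. WT cultures held 137 and 162, 249 and 228, and 188 and 204 TPM, and stabilized cultures 199, 228, 158 and 150.4. The cultures were all above the sorted cells, and the WT experiments differed by only 1.59-fold. The log2 fold was 3.82 ± 0.38 in WT cultures (adjusted p = 0.000175) and 3.65 ± 0.23 in stabilized cultures (adjusted p = 0.000121). It was 3.61 in WT cultures with transcript lengths in the fit. In GFP-negative library 2 and acute library 2, Ccng1-202 held 21.9 and 15.3 TPM, and the other 12 libraries held none of it, so in Ccng1-201 the acute level was 4.14 and 4.63 TPM.

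Gdf15 (chr8:70629393-70632456, −) makes a secreted stress cytokine of the TGF-beta family, which both p53 and the ATF4/CHOP stress response induce. It had 0 counts in both acute libraries and 10 and 0 in GFP-negative cells. WT cultures held 32.8 and 37.5, 43.2 and 39.3, and 17.7 and 19.5 TPM, and stabilized cultures 63.7, 65.9, 15.8 and 14.9. Every culture had 636 to 3011 counts where the acute libraries had none. Against the 3 counts over both acute libraries that a count of 0 allows (0.0199 CPM), the WT mean of 27.3 ± 10.2 CPM (SD, n = 6) was at least 1370-fold higher and the stabilized mean of 35.3 ± 17.3 CPM (SD, n = 4) at least 1768-fold higher. It was called in both (edgeR adjusted p = 0.000141 and 0.000349). The lowest single wells were at least 970-fold and 995-fold higher. Gdf15-202 was the main transcript in all 10 cultures, at 12.8 to 61.7 TPM.

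**Figure D3:**
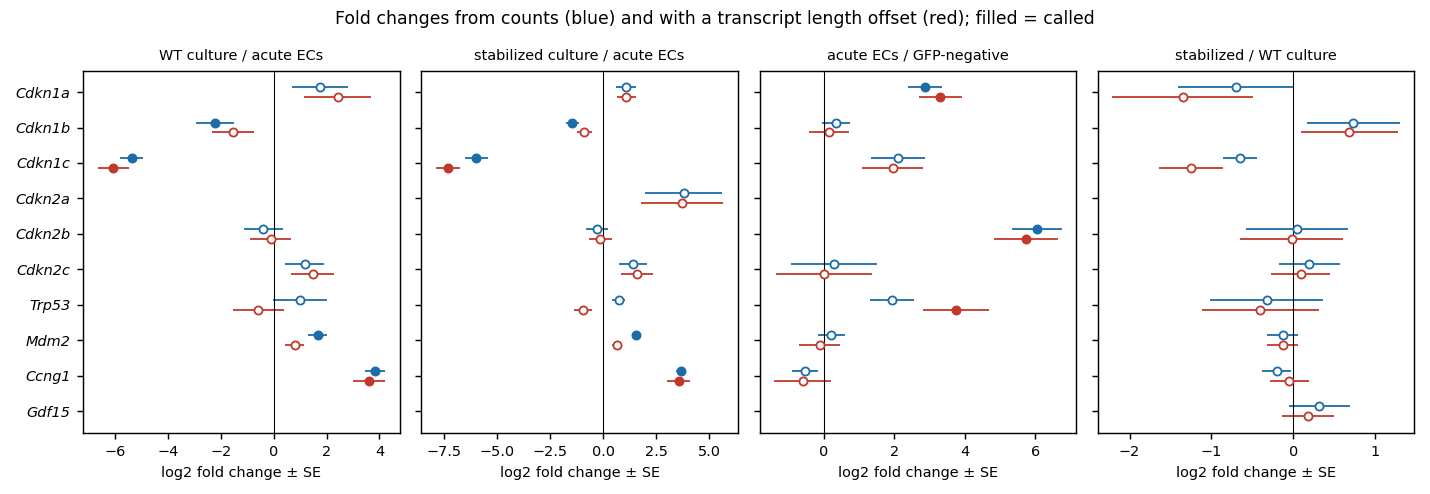
Log2 fold ± SE of each member in 4 comparisons, from counts (blue) and with transcript lengths in the fit (red), where filled points were called. Gdf15 is left out against acute ECs, where its count was 0. Ccng1 and Cdkn1c lay far from 0 against acute ECs on either scale, and Mdm2 and Cdkn1b lost their calls with lengths.

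By mean TPM, a per-length level, the order in acute ECs was Cdkn1c (164 ± 108, SD, n = 2), Cdkn1a (46.4 ± 4.73), Mdm2 (29.4), Trp53 (26.5), Cdkn2b (18.1 ± 9.66), Cdkn1b (15.97 ± 10.1), Ccng1 (12.0), Cdkn2c (1.40), Cdkn2a (0.0284) and Gdf15 (0). In that order Cdkn1c was above Cdkn1a in both libraries, and the genes from Mdm2 to Ccng1 overlapped their neighbours. In stabilized cultures the order ran Ccng1 (184 ± 36.2, SD, n = 4), Cdkn1a (142 ± 12.3), Mdm2 (66.2 ± 21.9), Gdf15 (40.1 ± 28.6), Cdkn2b (27.6 ± 21.8), Trp53 (23.1 ± 8.18), Cdkn1b (13.3 ± 7.81), Cdkn2c (5.63 ± 2.82), Cdkn1c (1.80 ± 0.723) and Cdkn2a (0.858 ± 0.967). Every step but that from Cdkn1a to Mdm2 and that from Cdkn2c to Cdkn1c joined genes whose wells overlapped. In WT cultures the order was Cdkn1a (559 ± 672, SD, n = 6), Ccng1 (195 ± 41.3), Mdm2 (73.97 ± 25.2), Trp53 (41.2 ± 47.2), Gdf15 (31.7 ± 10.7), Cdkn2b (25.8 ± 17.0), Cdkn1b (6.42 ± 3.85), Cdkn2c (5.54 ± 3.33), Cdkn1c (5.21 ± 4.75) and Cdkn2a (0.0805 ± 0.147). Neighbours overlapped there except Ccng1 and Mdm2, and Cdkn1c and Cdkn2a. In GFP-negative cells Cdkn1c (51.0) and Mdm2 (35.5) led and overlapped, and Cdkn2b (0.346), Gdf15 (0.0532) and Cdkn2a (0) came last.

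Stabilized against WT cultures, 0 of 9 members were called by edgeR, where 0% of 12971 genes were called. At an unadjusted p under 0.05, edgeR counted 1422 genes and 1 member, Cdkn1c, whose log2 fold was −0.65 ± 0.21 (adjusted p = 0.406). DESeq2 called 16 of 17420 genes and 0 members. The other members lay between −0.70 ± 0.71 (Cdkn1a) and 0.73 ± 0.57 (Cdkn1b), and every member's wells overlapped between the groups in TPM. Mdm2 (−0.13 ± 0.19) and Ccng1 (−0.20 ± 0.18) had the smallest errors. These pooled values average over isolation methods that the genes did not follow alike.

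Within method A, whose 4 wells were all read at 36 cycles, Cdkn1a and Trp53 were higher in stabilized than in WT wells. Cdkn1a stood at 125 and 146 TPM against 24.7 and 36.6 (log2 fold 1.53 ± 0.10, adjusted p = 0.000486), and Trp53 at 28.9 and 31.5 against 2.26 and 4.58 (2.40 ± 0.18, adjusted p = 0.000549). These 2 of 10 members were called, with 6.32% of 12860 genes. Within method B at 36 cycles, Cdkn2b was the only member called of 9, with 1.37% of 12847 genes, at 7.83 and 9.65 TPM against 3.52 and 4.86 (1.18 ± 0.16, adjusted p = 0.00409). Under the 2-fold limit but past the adjusted p there were Cdkn1a (−0.53 ± 0.08, adjusted p = 0.00456), Mdm2 (−0.45 ± 0.05, adjusted p = 0.00226), Cdkn2c (0.98 ± 0.11, adjusted p = 0.00231) and Ccng1 (−0.28 ± 0.05, adjusted p = 0.0123). In method A the same held for Cdkn1c (−0.57, adjusted p = 0.0253), Cdkn2b (−0.29, adjusted p = 0.0306), Cdkn1b (0.27, adjusted p = 0.0334) and Mdm2 (0.20, adjusted p = 0.0486), and Cdkn2a there fell short of the TPM limit (2.15 ± 0.56, adjusted p = 0.0174). The split by method was chosen after the data were seen. Each arm was 2 wells of 1 preparation, so these p-values measure the spread between wells of a preparation. In method A the WT wells were C57BL/6J, without the Ctnnb1flex3 allele or Tie2-GFP that the stabilized wells carried. In each method stabilization cannot be told apart from preparation, nor in method A from these alleles.

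The difference between the methods was tested as an interaction over the 8 wells read at 36 cycles, and 5 of 10 members passed at an adjusted p under 0.05, as did 49.5% of 13369 genes, so the share of members was close to that of all genes. The log2 fold in method B minus that in method A was −2.48 ± 0.22 for Trp53 (adjusted p = 0.000121) and −2.03 ± 0.14 for Cdkn1a (adjusted p = 5.4e-05). It was −0.63 ± 0.09 for Mdm2 (adjusted p = 0.000737), 1.48 ± 0.20 for Cdkn2b (adjusted p = 0.000561) and 1.19 ± 0.14 for Cdkn2c (adjusted p = 0.000361). Gdf15 (−0.23, adjusted p = 0.193), Ccng1 (0.03), Cdkn1b (0.01), Cdkn1c (0.14) and Cdkn2a (−0.82 ± 1.59) did not pass. Each arm is 2 wells of 1 preparation, and the WT genotype changes with the method. Stabilization, method, genotype and preparation thus cannot be told apart. Smooth muscle markers summed to 461 to 561 TPM in method A wells and 2257 to 3068 in these method B wells, and endothelial markers to 3405 to 5630 and 1674 to 1957. Their part in the interaction was not tested.

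**Figure D4:**
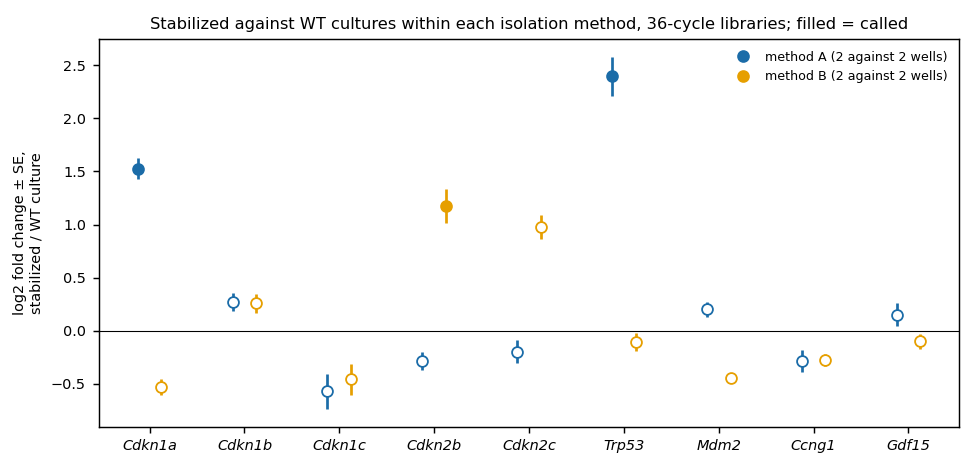
Log2 fold ± SE of stabilized over WT wells within method A and within method B at 36 cycles for 9 members. Trp53 and Cdkn1a lay above 0 in method A and at or below 0 in method B, and Cdkn2b and Cdkn2c the other way round.

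Of 25 other p53 targets, 9 were higher and 3 lower in WT cultures than in acute ECs, where 13.5% and 10.2% of all genes were, with a median log2 fold of 0.95 against 0.10 over all genes. Eda2r (9.49), a TNF-family receptor, Phlda3 (6.64), an inhibitor of Akt, and Bax (3.96), a pore-forming apoptosis protein, rose most. Polk (−2.19), a translesion polymerase, Sesn1 (−2.18), an inhibitor of mTORC1, and Rrm2b (−1.57), a ribonucleotide reductase subunit, fell. Stabilized cultures gave 11 higher and 3 lower, against 15.0% and 11.0% of all genes, with Eda2r (9.39), Phlda3 (6.24) and Bax (3.64) at the top again and the acute libraries shared. Between acute ECs and GFP-negative cells, where 8.28% of genes were higher and 7.55% lower, 5 were higher, led by Pmaip1 (6.09), Polk (4.54) and Plk2 (3.98), and Perp (−2.73) was lower. In stabilized against WT cultures 0 of 25 were called, as were 0% of all genes. In the interaction 4 passed upward and 7 downward of 25, among them Fas (2.02) and Zmat3 (−1.75), where 49.5% of all genes passed, so the count does not set these targets apart.

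Of the other genes named as CDK inhibitors, Cdkn2d (p19) was lower than in acute ECs in WT (−1.69) and stabilized cultures (−1.98). In mean TPM it stood at 9.18 in WT and 5.58 in stabilized cultures, against 11.7 in acute ECs. Folds of genes other than the members were taken without transcript lengths in the fit. Cdkn3, grouped here by its name alone, was not called. Of 8 repressors of Ink4a/Arf, 4 fell and 0 rose in each kind of culture, where 10.2% of all genes fell in WT and 11.0% in stabilized cultures, with Tbx3 (−4.05 and −3.71), a T-box factor, and Ezh2 (−2.40 and −2.30), the Polycomb methyltransferase, furthest down in both. The Polycomb genes Bmi1 and Suz12 were the other 2 that fell. In acute ECs against GFP-negative cells Tbx3 (2.82), Bmi1 (1.75) and Suz12 (1.47) were higher and Tbx2 (−2.39) lower. Of the p53 regulators, Mdm4 (−1.21), the Mdm2 partner, was lower in WT cultures and 0 of the other 8 tested were called.

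Among the kinases and cyclins these inhibitors act on, Cdk4 (1.76) was the only 1 of 10 called in WT cultures (13.5% of all genes were higher), although their median log2 fold was 1.92. In stabilized cultures 4 of 10 were higher, against 15.0% of all genes, among them Cdk1 (5.86), Ccnd1 (3.30) and Ccnd2 (1.65). Of 12 proliferation markers 1 was called in WT cultures (Mcm6, 3.40), where 13.5% of all genes were higher. In stabilized cultures 2 were called (Top2a, 6.25, and Mcm6, 3.21), against 15.0%. Their median log2 fold was 2.07 in WT and 2.29 in stabilized cultures, against 0.10 and 0.04 over all genes. In the interaction 11 of 12 passed upward, where 3348 of 13369 genes did, with Mcm5 at 1.51 and Top2a at 1.502. Of 9 genes of the RB and E2F group, the CDK-binding Cks1b (7.86 and 6.90) and Cks2 (4.24 and 3.46) rose in both cultures. In the interaction Cks2 and Rbl1 of that group passed upward and Rb1 downward.

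Gdf15 also answers to ATF4 and CHOP, and of 10 targets of these factors (Sesn2 among them also a p53 target) 5 rose and 1 fell in WT cultures, where 13.5% and 10.2% of all genes did, with a median log2 fold of 2.37. Phgdh (7.63), of serine synthesis, Chac1 (5.91), which degrades glutathione, and Asns (3.96), of asparagine synthesis, rose most, and Ddit4 (−3.13), an inhibitor of mTORC1, fell. In stabilized cultures 6 rose and 1 fell, against 15.0% and 11.0%. Of 7 genes followed in senescent cells, which are 5 secreted factors, the nuclear lamin gene Lmnb1 and the lysosomal enzyme gene Glb1, 3 rose in WT cultures (13.5% of all genes) and 4 in stabilized cultures (15.0%), Glb1 (1.19) being the other one there. Among them Igfbp3 (4.63 and 4.41), whose product binds insulin-like growth factors, was higher in both. The chemokine gene Ccl2 had 0 counts in acute ECs and was at least 11823-fold and 12098-fold higher by group means, and at least 1686-fold and 3005-fold higher in the lowest well of each, with 33.6 to 391.7 CPM among the WT wells.

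Accessible chromatin was read by ATAC-seq in 2 acute EC, 6 WT and 2 stabilized libraries, as peaks the authors called per library. The acute ECs were from Tie2-GFP mice. WT libraries 1 and 2 were C57BL/6J cells of method A, and WT libraries 3 to 6 were Ctnnb1flex3/+;Tie2-GFP cells of method B. Both stabilized libraries (Ctnnb1flex3/+;Pdgfb-CreER;Tie2-GFP) were of method B, unlike stabilized RNA wells 1 and 2. No stabilized ATAC-seq library was thus of method A. A peak lay within 1 kb of a start of 9 of the 10 members in all 10 libraries, whereas 54.5% to 66.2% of 21924 genes had 1 in each library. Gdf15 had none, though it was transcribed in culture. Within 5 kb it had peaks in both groups of ECs. The highest was 7.05 and 8.77-fold in acute ECs, 5.87 to 11.0-fold in WT and 8.33 and 8.85-fold in stabilized cultures. A lower Gdf15 peak, with its summit 1169 to 1227 bp downstream of the Gdf15-201 start, was called in WT libraries 3 to 6 and both stabilized libraries. It was 3.15 to 4.77-fold there, and was not called in either acute library or in WT libraries 1 and 2. Libraries with it held 79160 to 98840 peaks and those without it 31844 to 50450. The part of peak number was not tested. The enrichment at Ccng1 was 18.8 and 21.3-fold in acute ECs, 19.03 to 24.7-fold in WT and 21.6 and 21.9-fold in stabilized cultures, so peak heights overlapped where the RNA differed by a log2 fold of 3.82. At Cdkn1c, whose RNA fell, the peaks were 9.97 and 11.4-fold in acute ECs and 4.58 to 12.4-fold in WT cultures. At Cdkn1a the peak at the Cdkn1a-201 start was 8.52 and 8.72-fold in acute ECs, 5.48 to 7.43-fold in WT and 6.03 and 6.39-fold in stabilized cultures, all 8 cultures lying below both acute libraries. A peak with its summit 1724 to 1741 bp downstream of the Cdkn1a-205 start was 7.47 and 7.61-fold in acute ECs, 7.04 to 11.1-fold in WT and 9.03 and 9.91-fold in stabilized cultures, so that here WT overlapped acute ECs and both stabilized libraries lay above. These heights were not tested. Of the printed elements, the upstream one of Ccng1 lay under a peak in 10 of 10 libraries and the downstream one in 9, and those of Cdkn1a and Gdf15 in 0.

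At Cdkn2a, a peak lay at the Arf start in all 10 libraries, at 8.13 and 8.29-fold in acute ECs and 6.13 to 14.4-fold in WT cultures, although its RNA was near 0. The Ink4a start had a peak in both acute libraries (6.93 and 4.33-fold) and in WT libraries 3 and 4 (4.52 and 4.96-fold), and in none of the other 6.

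At Mdm2 the strongest summit changed place. It lay 17 bp upstream of the first start, that of Mdm2-201, in both acute libraries, at 13.03 and 11.5-fold. In all 8 cultured libraries it lay 614 to 645 bp downstream of that start, at 7.81 to 12.9-fold in WT and 11.6 and 13.3-fold in stabilized cultures. A second start, that of Mdm2-206, lies 680 bp downstream of the first, so the culture summit was 35 to 66 bp upstream of it. Of the RNA assigned to transcripts from this side, as given with the RNA, Mdm2-206 was 7.39 and 16.4 TPM in acute ECs and 0 to 9.85 in cultures. The transcript annotated for nonsense-mediated decay that starts close to it exceeded both acute libraries only in WT well 1. The transcript that was higher in culture, Mdm2-201, begins at the first start. The part of read type in this split between transcripts cannot be told apart from that of culture. Mdm2 is known for a constitutive upstream promoter and a p53-responsive one in its first intron. Within 3 kb of the starts, matches to the p53 element with 3 mismatches were listed for Mdm2 alone. For the other members only those with at most 2 were listed. Sequence around each summit is shown, on the gene's strand of GRCm38.p6, as chr10:117710701-117710850 for acute ECs and chr10:117710031-117710230 for cultures, with capitals for a match to the p53 element with 3 mismatches.
Mdm2, acute summit: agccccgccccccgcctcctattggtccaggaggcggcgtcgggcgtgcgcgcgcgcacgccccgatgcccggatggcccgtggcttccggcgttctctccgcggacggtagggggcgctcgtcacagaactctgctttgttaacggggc
Mdm2, culture summit: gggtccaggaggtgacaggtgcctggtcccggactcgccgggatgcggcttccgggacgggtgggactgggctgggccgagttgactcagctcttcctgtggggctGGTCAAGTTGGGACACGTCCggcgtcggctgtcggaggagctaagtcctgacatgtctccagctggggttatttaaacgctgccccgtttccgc
That match lay under a peak in all 10 libraries, as most peaks spanned both starts. WT libraries 1 and 2, the method A cultures, had a separate peak at each start, at 10.8 against 7.63-fold and 7.81 against 7.55-fold, the culture summit being the higher of each pair. The summit positions are a description of 2 and 8 libraries without a test, and libraries of different peak number (31844 to 98840) were not equalized.

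**Figure D5:**
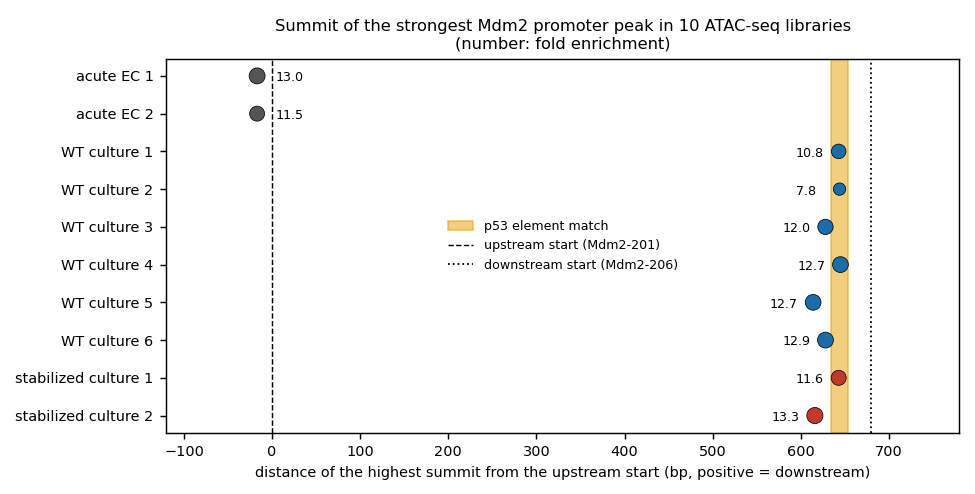
Distance in bp of the strongest Mdm2 ATAC-seq summit from the Mdm2-201 start (horizontal axis, positive downstream) in each of 2 acute, 6 WT and 2 stabilized libraries (rows), with fold enrichment as the number beside each point and as its size. The lines mark the starts of Mdm2-201 and Mdm2-206 and the band marks the match to the p53 element. The acute summits lay at the first start and the 8 culture summits near the second.

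Genes whose levels ran most like a member's across the 14 libraries were ranked by Pearson's r of log2(TPM + 1) over 9066 genes, as a description of libraries that share preparation and read type. For Cdkn1a these were Tagln2 (0.987), Arhgdia (0.981) and Map2k3 (0.974), for Trp53 Acd (0.982), Unc119b (0.971) and Sf3b3 (0.969), and for Cdkn2b Slc16a9 (0.984), Gimap5 (0.979) and Xaf1 (0.973). The nearest gene was Scaper for Cdkn1b (0.968), Isyna1 for Cdkn1c (0.971), Dhrs7 for Cdkn2c (0.973), Lonp1 for Mdm2 (0.986), Ube2s for Ccng1 (0.992) and AA467197 for Gdf15 (0.997). That for Cdkn2a, Myo9b (0.942), rests on a member near 0 in most libraries.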

How the data were processed

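Gene and transcript levels were taken from 14 RNA-seq libraries and accessible sites from 10 ATAC-seq libraries. The estimated counts and TPM per transcript were made by the authors with Salmon 0.14.0 on GENCODE M21, with sequence, GC and position bias models. Cerebrum and cerebellum reads of sorted cells were combined by them. The deposited peaks, with fold enrichment, −log10 q and score (10 times −log10 q), were called by the authors per library with MACS2 2.1.2 after HISAT2 2.1.0 alignment to GRCm38. Peaks over 2-fold and −log10 q over 2 were used.

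Here, counts were summed per gene, rounded and tested by edgeR's quasi-likelihood test (edgeR 4.0.16, R 4.3.3) with TMM scaling, within the groups compared, over protein-coding genes, with Benjamini-Hochberg adjustment. A call needed adjusted p under 0.05, over 2-fold, and 5 TPM in every library of the higher group. DESeq2 1.42.0, library-size scaling, effective lengths as offsets, no filter on low counts and leaving out each library were alternatives. In simulated data for WT against acute, 24% of genes changed by a log2 fold of 2 and 82% of those changed by 4 were recovered. All 10 members are named, and of each other list at most 3 called genes a direction, those with the largest change, apart from an item that is not reported here. The members and lists were chosen with earlier results of these data known. Same-numbered wells did not all deviate together (correlations −0.0586 to 0.577), so numbers were not used as pairs. Sequences came from the RefSeq GRCm38.p6 genome, and intervals of error are SE or SD as stated. Protein sequences and the separate cerebrum samples were not used here. No columns of values were left unmapped (0).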

Additional observations from a re-analysis of the deposited data

Results flagged for a closer look

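In WT culture well 2, Cdkn2a stood at 0.378 TPM (10 counts), apart from the other 5 wells at 0 to 0.0558 TPM. It was found by a gap test over 20 sets of a gene in a group, which by chance picks about 1 in 20.

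The log2 fold of stabilized over WT wells differed between isolation methods, by an edgeR test of the difference itself (method B minus method A). The genes were Trp53 (−2.48), Cdkn1a (−2.03), Mdm2 (−0.63), Cdkn2b (1.48) and Cdkn2c (1.19). Wells of the same preparation, WT or stabilized, were at most 2.02-fold apart in TPM for these genes. Stabilization, method, preparation and WT genotype cannot be told apart, and 49.5% of all genes passed the same test.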

How the results depend on the processing

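Of the recomputed member log2 folds, 609 kept their direction and call, 38 changed direction, 14 gained a call and 9 lost one. The number of members called, or with a peak at a start, stayed within 1.5 times in 71 of 77 alternatives. The number called was 3 with transcript lengths in the fit against acute ECs, for WT and for stabilized cultures alike. It was 4 by DESeq2 and without acute library 2 between acute ECs and GFP-negative cells. It was 2 within method A and 1 within method B for stabilized against WT cultures. Leaving out 1 library at a time gave 4 to 5 (WT against acute), 2 to 4 (acute against GFP-negative), 0 to 0 (stabilized against WT) and 5 to 6 (stabilized against acute). No fold that changed direction belonged to a member called in that comparison. Members with a peak at a start in all libraries numbered 7 with stricter peaks, 10 within 5 kb and 8 at the start of the transcript with the highest TPM, against 9.

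Against acute ECs, experiment 1 alone turned Cdkn1a (−1.10), Cdkn2b (0.49) and Trp53 (−1.79), and lengths turned Trp53 (−0.58 in WT and −0.96 in stabilized cultures). Leaving out single libraries moved Cdkn2b in stabilized cultures between −0.58 and 0.0488. Between acute ECs and GFP-negative cells, library-size scaling turned Cdkn1b (−0.0405), Cdkn2c (−0.0552) and Mdm2 (−0.17), lengths turned Mdm2 (−0.12), and Cdkn2c ran from −1.41 to 2.12 with single libraries left out. For stabilized against WT cultures, method A alone turned Cdkn1a (1.53), Cdkn2b (−0.29), Cdkn2c (−0.20), Trp53 (2.40) and Mdm2 (0.20), and method B alone Gdf15 (−0.10). The method as a covariate turned Cdkn1a (0.49) and Trp53 (1.10). Cdkn2b there was −0.0392 with library-size scaling, −0.0218 with lengths, and −0.24 to 0.34 with single wells left out. In the interaction Cdkn1b was −0.0026 with no filter on low counts and −0.0023 by DESeq2, and Ccng1 was −0.012 with lengths. Against acute ECs, stabilized cultures gained a call of Cdkn1a with library-size scaling (1.24) and of Trp53 without acute library 1 (1.34), and lost that of Cdkn1b with all 14 libraries in 1 fit (−1.44). The cause was not tested.

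Same-numbered stabilized and WT wells share their isolation method (wells 1 and 2 method A, 3 and 4 method B), and their deviations correlated at 0.571, 0.577, 0.0733 and 0.152, so the block there also stands for method and read type. In the other comparisons same-numbered samples share only a number (−0.0586 to 0.0928). Acute libraries bear only the numbers 1 and 2, so against them the block takes the fold from culture wells 1 and 2 alone. Those wells are experiment 1 in WT cultures and the method A wells in stabilized cultures, so the blocked values stand for part of the cultures. With the replicate number as a block, WT against acute turned Cdkn1a (−1.01), Cdkn2b (0.52) and Trp53 (−1.72, then called lower), stabilized against WT turned Cdkn1a (0.26), Cdkn2b (−0.51), Cdkn2c (−0.13), Trp53 (0.57) and Mdm2 (0.10), and stabilized against acute turned Cdkn2b (0.26). The block called 138 genes higher and 44 lower between stabilized and WT cultures, where DESeq2 called 13 and 3, the method as a covariate 66 and 10, and edgeR without it 0. It called 6 members in WT against acute and 3 in acute against GFP-negative.

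Over all genes, dropping the TPM minimum gave 3160 higher and 2829 lower in WT cultures, against 1866 and 1410, and 3411 and 3215 in stabilized cultures, against 2092 and 1530. Summing wells gave 1253 and 834 in WT cultures. For acute ECs over GFP-negative cells, library-size scaling moved the share of calls that were higher from 52.3% to 39.6% and the all-gene median from −0.06 to −0.44, and lengths gave 653 higher and 897 lower, against 1252 and 1142. Without the TPM minimum these were 1496 and 2978. In the interaction, library-size scaling moved the share of calls that were higher from 50.6% to 60.0%. Against acute ECs, 2 libraries and counts near 0 limit what can be said of Cdkn2a, Cdkn2c and Gdf15.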
